A study of Mus musculus with 4 samples.

Results

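The lectin-like receptors and ligands of the natural killer gene complex were examined in cultured mouse pancreatic ductal cells. Members were all gene symbols that begin with Klra to Klrk or with Clec2, which gave 42 of the 22869 symbols in the table. A symbol with several transcript entries was represented by 1 entry, chosen by its mean count over the 4 libraries, the highest being taken. That choice takes no account of group. They comprised 21 Klra genes, 14 other Klr genes, 6 Clec2 genes and Klraq1. The last matched the name pattern only: the RefSeq table lists its transcript as Ppp1r21 on chromosome 17, away from the complex.

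The study used RNA sequencing to compare primary ductal cells with and without deletion of Hhex, a homeobox transcription factor gene. The labelled knockout cells came from 2 Sox9CreER;HhexL/L mice, which carry 2 loxP-flanked Hhex alleles and a tamoxifen-dependent Cre recombinase driven by the Sox9 promoter. The control cells came from 2 HhexL/L littermates without Cre. All animals were adult, uninduced C57BL/6 mice, and cells of both genotypes received 500 nM 4-hydroxytamoxifen in culture for 4 days. No Cre-positive group with intact Hhex was analysed here, so effects of Cre and of Hhex loss cannot be told apart.

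Total counts were 39582625 and 30835777 in the libraries labelled knockout and 25513289 and 25257778 in the controls. Levels are given in CPM, counts scaled to library size with edgeR's TMM factors. Hhex itself had 23.6 and 38.97 CPM in the libraries labelled knockout, against 24.85 and 17.72 CPM in the controls, a log2 fold change of 0.55 ± 0.27 (SE; edgeR adjusted p = 0.7345). The transcript count was thus not lower in the libraries labelled knockout, and the sources used here do not give which exons are deleted. Summed CPM of 11 ductal markers was 16770 and 13510 in the libraries labelled knockout and 12900 and 15370 in the controls. That sum is mostly Krt18 and Krt8. Of single markers, Sox9 had 52.29 and 44.29 CPM in the libraries labelled knockout, against 18 and 21.37 CPM in the controls (log2 fold change 1.3 ± 0.17, SE; edgeR adjusted p = 0.05122), while Muc1 and Cftr had log2 fold changes of -2.24 ± 0.49 and -0.94 ± 0.25 (SE; edgeR adjusted p = 0.2137 and 0.3441). Their part in the results was not tested. Xist, transcribed from the inactive X chromosome, had 0.75 and 304 CPM in the libraries labelled knockout and 1.75 and 0.892 CPM in the controls, which set Hhex knockout replicate 2 apart.

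Klra genes encode the Ly49 receptors, type II membrane proteins with a lectin-like domain that mouse natural killer cells use to sense MHC class I molecules on other cells. Inhibitory Ly49 receptors carry an immunoreceptor tyrosine-based inhibitory motif near the start of the protein and recruit phosphatases such as Ptpn6, whereas activating receptors lack the motif and signal through the adaptor Tyrobp. The same gene complex encodes the Klrb1 receptors and their Clec2 ligands, the Klrd1-Klrc receptors that read the nonclassical MHC molecule H2-T23, and the activating receptor Klrk1. These genes are known for their part in natural killer cells, not in ductal epithelium.

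The beginning of the coding sequence separates activating from inhibitory receptors, and it is shown for members of each pattern described below. The sequences are the first 60 coding bases, 5′ to 3′, from GENCODE M21 transcripts (GRCm38, chromosome 6, minus strand). Capitals mark bases 16 to 33, where they encode the inhibitory motif.
Klra4: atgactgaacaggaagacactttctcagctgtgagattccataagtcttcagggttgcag
Klra8: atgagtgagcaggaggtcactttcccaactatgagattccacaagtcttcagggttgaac
Klra1: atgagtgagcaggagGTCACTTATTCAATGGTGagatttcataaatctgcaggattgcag
Klra3: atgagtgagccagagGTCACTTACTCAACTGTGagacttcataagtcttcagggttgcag
Klra7: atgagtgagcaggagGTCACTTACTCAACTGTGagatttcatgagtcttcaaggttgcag
Klra9: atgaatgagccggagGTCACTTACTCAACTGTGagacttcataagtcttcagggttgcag
Klra4 and Klra8, the activating receptors Ly49D and Ly49H, had no motif codons in this window. Klra1, Klra3, Klra7 and Klra9, known as the inhibitory receptors Ly49A, Ly49C, Ly49G and Ly49I, all did. Klra3 and Klra9 differed at 2 of the 60 bases (96.7% identity), whereas Klra4 and Klra8 shared 50 of 60 (83.3%).

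Klra18, Klra4, Klra33, Klra15, Klra12 and Klra22 rose in the libraries labelled knockout, by 3.64-fold to 3.79-fold. These were all the members called by edgeR's quasi-likelihood test at an adjusted p under 0.05, and no member was called lower. Of the called members, only Klra4 had its transcript in the RefSeq table for GRCm38. Over all transcript entries tested 0.105% were called higher and 0.0477% lower, and with 1 entry per symbol 0.0881% were called higher and 0.0503% lower. The gene family was chosen for description with these results known, so the counts describe it and are no independent support. The p-values rest on the spread between 2 libraries in each group, moderated in the fit by the spread of the other transcript entries.

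Klra18, named from Ly49 genes of another inbred strain, had the highest mean count of the family. It had 111.4 and 120.9 CPM in the libraries labelled knockout, against 25.47 and 35.88 CPM in the controls. The groups did not overlap, and the lower of the libraries labelled knockout was over 3 times the higher control. The log2 fold change was 1.92 ± 0.19 (SE; edgeR adjusted p = 0.02486), a 3.79-fold rise with a 95% interval of 2.77 to 5.18.

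Klra4, the activating receptor Ly49D, had 97.98 and 107.5 CPM in the libraries labelled knockout, against 22.77 and 32.8 CPM in the controls. Its log2 fold change was 1.89 ± 0.20 (SE; edgeR adjusted p = 0.02486), and the groups again did not overlap. Per transcript length Klra4 reached 80.67 and 84.11 RPKM (reads scaled to transcript length and library size, as deposited) in the libraries labelled knockout, against 16.76 and 26.08 RPKM in the controls. Klra18 was lower than Klra4 on that scale, with 71 and 73.18 RPKM in the libraries labelled knockout and 14.51 and 22.08 RPKM in the controls.

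Klra33 was barely separable from Klra4 in the counts. Its counts were 3652 and 3326 in the libraries labelled knockout, where Klra4 had 3658 and 3333. The RefSeq table lists Klra33 as a synonym of Klra4, so the pair is uncertain as separate genes. Klra33 had the highest RPKM of the family, at 97.82 and 101.9 in the libraries labelled knockout and 20.3 and 31.6 in the controls.

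Klra15 had 79.47 and 90.03 CPM in the libraries labelled knockout, against 18.14 and 26.88 CPM in the controls (log2 fold change 1.91 ± 0.21, SE; edgeR adjusted p = 0.02582). Klra12 had 58.26 and 66.09 CPM in the libraries labelled knockout, against 15.08 and 18.53 CPM in the controls (log2 fold change 1.89 ± 0.17, SE; edgeR adjusted p = 0.02486). Klra22 had 57.86 and 66.19 CPM in the libraries labelled knockout, against 13.01 and 21.12 CPM in the controls (log2 fold change 1.87 ± 0.23, SE; edgeR adjusted p = 0.0496). In each of these 3 genes Hhex knockout replicate 2 was the highest library and control replicate 1 the lowest. Klra22 is listed in the RefSeq table as a synonym of Klra1.

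The inhibitory receptor gene Klra1 and the pair Klra13-ps and Klra23 had the same order of libraries by group but missed the threshold. Klra1 had 20.22 and 21.19 CPM in the libraries labelled knockout, against 4.04 and 7.66 CPM in the controls, a log2 fold change of 1.83 ± 0.28 (SE; edgeR adjusted p = 0.08618). Klra13-ps and Klra23 had identical counts in every library, 362 and 340 in the libraries labelled knockout and 85 and 74 in the controls, and so carry 1 measurement between them. Their log2 fold change was 1.76 ± 0.24 (SE; edgeR adjusted p = 0.05389).

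Klra7, which encodes the inhibitory receptor Ly49G, was scarce, with 1.15 and 1.06 CPM in the libraries labelled knockout and 0.401 and 0.284 CPM in the controls. Its log2 fold change was 1.67 ± 0.61 (SE; edgeR adjusted p = 0.5448), and its groups did not overlap. Of the 20 Klra genes tested, 19 had a positive log2 fold change and 1 a negative one, with a median of 1.64 beside a median of -0.01 over all 20949 transcript entries tested. In 12 of the 20 both libraries labelled knockout exceeded both controls, against 18.8% of all symbols tested. Klra genes share sequence, so these are not separate observations of the same effect.

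**Figure D1:**
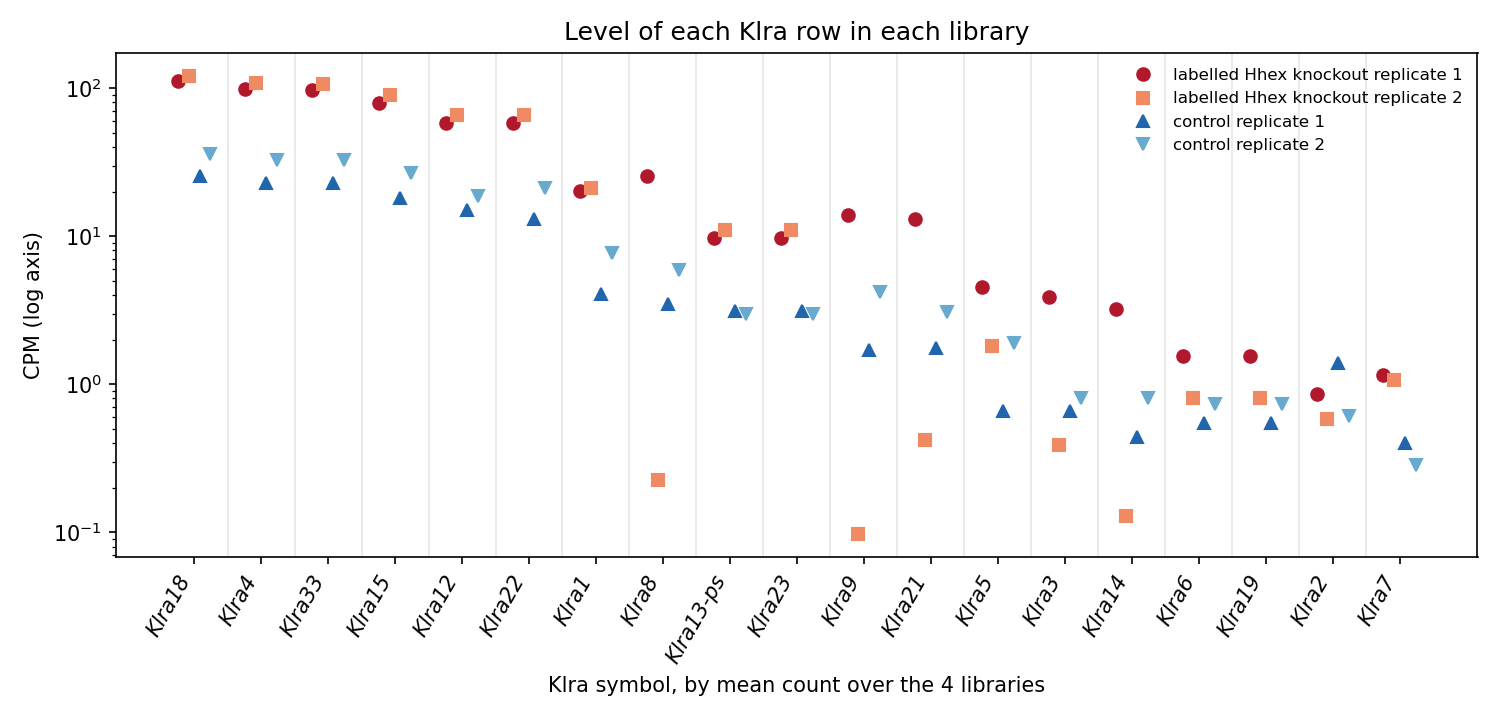
CPM (log axis) of the 19 Klra symbols with a mean of at least 20 counts, with 1 point per library: circles and squares are the 2 libraries labelled Hhex knockout, upward and downward triangles the 2 controls. From Klra18 to Klra22 both labelled knockout points lie above both control points, while in Klra8, Klra9, Klra21, Klra3 and Klra14 Hhex knockout replicate 1 is the highest library and replicate 2 the lowest.

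The calls depended on single controls and on the scaling, as did calls over all transcript entries. None of the 6 genes was called with library totals in place of TMM factors, or with 1 transcript entry per symbol in the fit. In both settings 0 of all transcript entries were called higher, so this loss was not particular to Klra genes. Over these settings and the fits without 1 control, the log2 fold change of Klra18 lay between 1.69 and 2.22. The low end was without control replicate 1 and the high end without control replicate 2.

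Several of these genes kept a nearly fixed ratio of counts in all libraries. With Klra18 as the base, Klra4 had 87.9% and 89.0% of its count in the libraries labelled knockout and 89.4% and 91.4% in the controls. Klra15 had 71.3% and 74.5% in the libraries labelled knockout and 71.2% and 74.9% in the controls. The ratio of Klra18 to Klra4 varied by 1.04 times between the highest and lowest library, and that of Klra18 to Klra15 by 1.05 times, while the level of each gene varied over 4 times.

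Klra22 had 51.9% and 54.8% of the Klra18 count in the libraries labelled knockout and 51.1% and 58.9% in the controls. Joined so that every pair of ratios varied by at most 1.2 times, Klra4, Klra15, Klra18, Klra22 and Klra33 formed 1 group of 5. Klra12 stayed within 1.15 times of Klra18 but varied by 1.32 times against Klra22, and so stood outside it. The other groups of this kind were the identical pair Klra13-ps and Klra23 and the identical pair Klra6 and Klra19.

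Few other genes kept such a ratio to Klra18. A gene with no change between the groups cannot, because Klra18 rose. Ratios between pairs of genes outside the name pattern were not examined. Of 15869 other symbols with a count in every library, 6 stayed within 1.2 times of Klra18 (0.0378%), and 1 of these lay outside the name pattern, the sulfotransferase gene Sult1a1. Sult1a1 had 66.64 and 69.93 CPM in the libraries labelled knockout, against 15.67 and 22.74 CPM in the controls. The next in likeness were S100b, Lass3, Gm5039 and Slc16a12, whose ratios to Klra18 varied by 1.36 to 1.42 times. The measure covers 4 libraries. Some Klra genes share stretches of sequence, as described below, but the sequence of Klra18 was not compared. How reads that match several genes were assigned is not given in the sources used here, so the 6 calls are uncertain as separate genes.

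**Figure D2:**
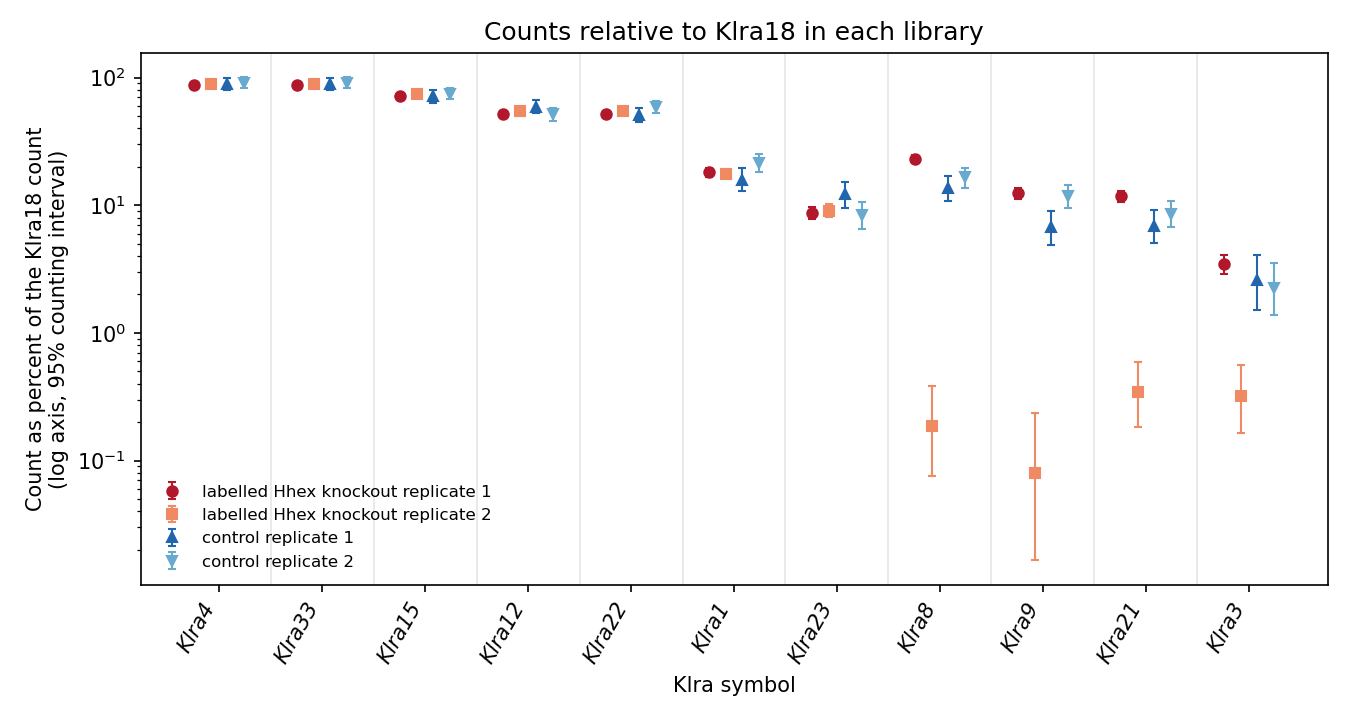
Counts of 11 Klra symbols as a percent of the Klra18 count (log axis), 1 point per library with a 95% counting interval; circles and squares are the 2 libraries labelled Hhex knockout, triangles the 2 controls. Klra4, Klra33, Klra15, Klra12 and Klra22 are nearly level over the 4 libraries, while Klra8, Klra9, Klra21 and Klra3 drop in Hhex knockout replicate 2, with Klra8 at 0.187% there and 22.98%, 13.6% and 16.5% elsewhere.

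A further set of Klra genes was high in 1 library labelled knockout and lowest in the other. Klra8, the activating receptor Ly49H that recognises cells infected by mouse cytomegalovirus, had 25.61 and 0.226 CPM in the libraries labelled knockout, against 3.46 and 5.92 CPM in the controls. These values rest on 956 and 7 counts in the libraries labelled knockout and on 95 and 146 counts in the controls. The controls lay between the libraries labelled knockout, and the log2 fold change of 1.5 ± 1.19 (SE; edgeR adjusted p = 0.8849) describes neither of them.

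Klra9, the inhibitory receptor Ly49I, had 13.79 and 0.0968 CPM in the libraries labelled knockout, against 1.71 and 4.22 CPM in the controls. Klra21 had 13.07 and 0.419 CPM in the libraries labelled knockout, against 1.75 and 3.08 CPM in the controls. Klra3, the inhibitory receptor Ly49C, had 3.86 and 0.387 CPM in the libraries labelled knockout, against 0.656 and 0.811 CPM in the controls. In all 3 genes replicate 1 of the libraries labelled knockout was the highest library and replicate 2 the lowest.

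Klra14 had the same order, with 3.24 and 0.129 CPM in the libraries labelled knockout, against 0.437 and 0.811 CPM in the controls. None of these 4 genes passed the threshold, with edgeR adjusted p between 0.8098 and 0.8954. Klra10, an inhibitory Ly49 gene with too few counts to be tested, had 39 and 5 counts in the libraries labelled knockout and 3 and 6 in the controls.

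The 2 libraries labelled knockout differed widely in these genes. The intervals given here cover counting error only, not variation between animals. Hhex knockout replicate 1 exceeded replicate 2 by 113 times in Klra8 (95% counting interval 54.8 to 282.7). The same ratio was 142.5 in Klra9, 31.2 in Klra21, 25.1 in Klra14 and 9.96 in Klra3. Klra18 had a ratio of 0.922 between the same libraries. Of all 15892 symbols tested, 25 were at least 10 times higher in replicate 1 than in replicate 2 (0.157%), and 68 at least 10 times higher in replicate 2 (0.428%). The set was grouped by this same difference, so the shares are a description and no independent support.

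Hhex knockout replicate 1 exceeded the control mean by similar factors in these genes, 5.46 in Klra8, 4.65 in Klra9, 5.41 in Klra21, 5.19 in Klra14 and 5.26 in Klra3. An excess there was not particular to this set: the factor was 3.63 in Klra18, 3.53 in Klra4 and 3.39 in Klra22, but 0.860 in Klra2. The control mean in turn exceeded Hhex knockout replicate 2 by 20.8 times in Klra8 and 30.6 times in Klra9, but by 1.89 times in Klra3. Without Hhex knockout replicate 1, the log2 fold changes became -4.36 for Klra8, -4.87 for Klra9 and -2.52 for Klra21. Those of Klra14 and Klra3 were negative too. That fit has a single library labelled knockout, which is assumed to vary like the controls. The genes were grouped by their low level in that same library, so the negative signs were fixed beforehand and are no independent result. Hhex knockout replicate 2 also carried the high Xist level, whose part in these values was not tested.

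Ratios of counts within the set were imprecise in Hhex knockout replicate 2, since Klra8 had 7 counts there. As a percent of the Klra8 count, Klra21 had 51.1% in Hhex knockout replicate 1 and 50.5% and 52.1% in the controls. In Hhex knockout replicate 2 Klra21 had 185.7%, with a 95% counting interval of 68.9% to 549.7%. This overlapped the intervals of the controls, 34.9% to 72.2% and 38.92% to 69.15%, but not that of Hhex knockout replicate 1, 45.7% to 57.0%. Such intervals assume that no read was counted for both genes, which is not known. Klra9 had 53.9% and 42.9% of the Klra8 count in the libraries labelled knockout and 49.5% and 71.2% in the controls, and its interval in Hhex knockout replicate 2, 7.15% to 187.7%, held the values of the other libraries.

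No symbol, in the name pattern or outside it, kept to the Klra8 profile within 1.2 times. Within the set, the ratio to Klra8 varied 1.66 times in Klra9, 3.68 in Klra21, 4.52 in Klra14 and 12.5 in Klra3. The nearest symbol outside the pattern was BC030476, with a ratio to Klra8 that varied 2.29 times. BC030476 had 35.09 and 0.710 CPM in the libraries labelled knockout and 10.78 and 11.31 CPM in the controls. Ifi27l2b, Xlr3b, Eif3j and Hpgd followed, with ratios that varied 6.47 to 8.08 times. All 5 were lowest in Hhex knockout replicate 2. They were picked for likeness to Klra8, which was lowest there, so this order follows from the choice and is no independent result.

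The 2 patterns were interleaved along the chromosome. In the gene order of GRCm38, Klra4, which rose in both libraries labelled knockout, stands directly beside Klra8, which is followed by Klra9. Both of these were near the floor in Hhex knockout replicate 2. Farther along, Klra13-ps, Klra3 and Klra1 follow one another, and only Klra3 of these dropped in that library. Of the 42 members, 33 had their transcript in the GRCm38 table. The 9 others were Klra12, Klra14, Klra15, Klra18, Klra19, Klra21, Klra22, Klra23 and Klra33, and have no place in this order.

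**Figure D3:**
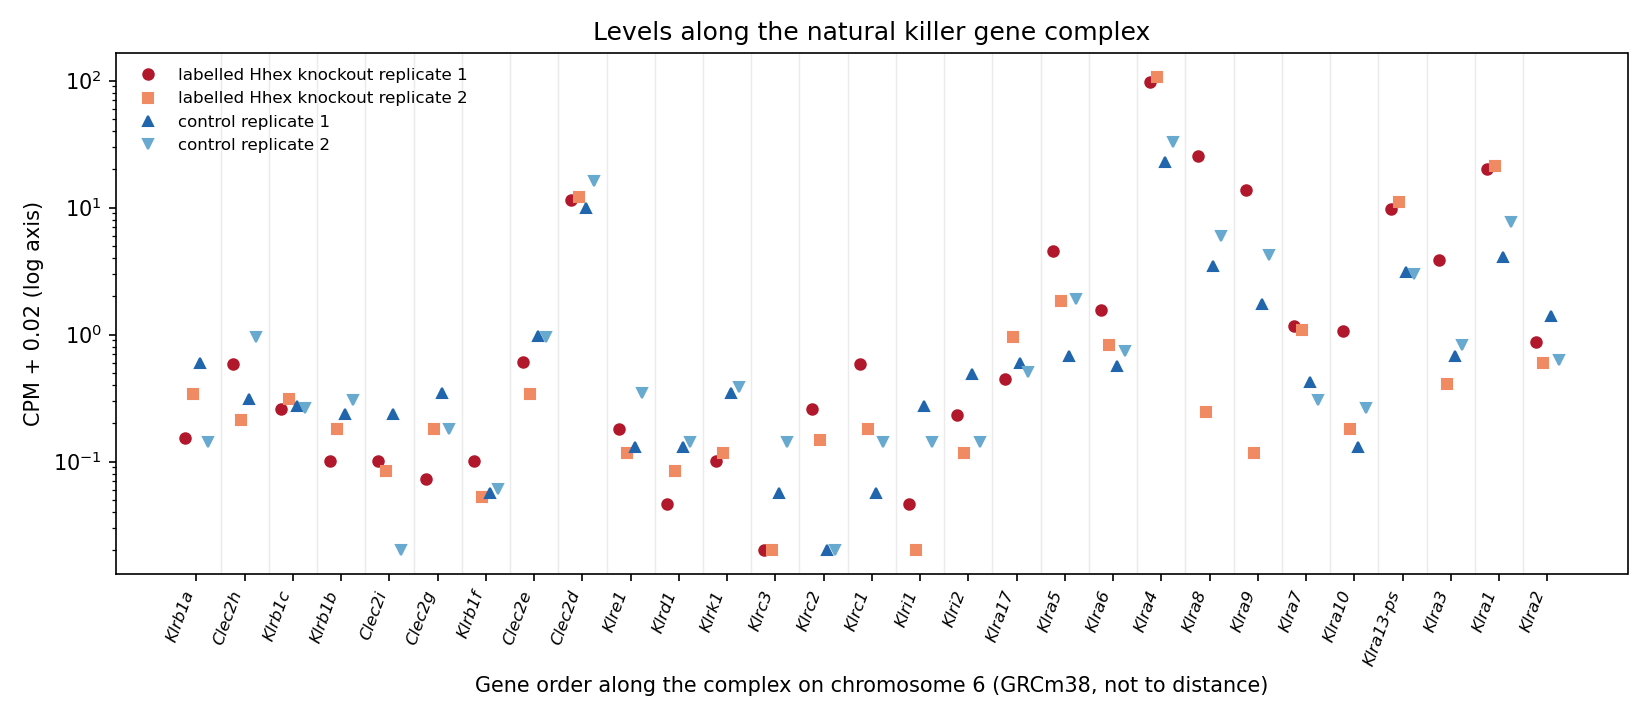
CPM plus 0.02 (log axis) of 29 members in their order along chromosome 6 of GRCm38, not to distance, with 1 point per library: circles and squares are the 2 libraries labelled Hhex knockout, triangles the 2 controls. Klra4 and Klra1 are higher in both libraries labelled knockout, the neighbours Klra8 and Klra9 fall apart between them, and most genes from Klrb1a to Klri2 lie below 1 CPM.

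Transcript sequences were compared for 11 Klra genes. The other Klra genes, Klra18, Klra33 and Klra21 among them, were not compared. The longest identical run of Klra4 and that of Klra8 were each with a gene of their own pattern. Klra5 and Klra6, placed in neither pattern, had their longest runs with Klra10 (55 bases) and Klra9 (60 bases). Whether shared sequence has a part in the counts was not tested. Klra4 and Klra1 had an identical run of 78 coding bases, and Klra8 and Klra9 one of 106. Between Klra4 and its neighbour Klra8 the longest identical run was 24 bases. The runs of Klra4 with Klra1 and of Klra8 with Klra9 are shown with 12 coding bases on each side, from the same GENCODE transcripts. Capitals mark the uninterrupted identical run.
Klra4: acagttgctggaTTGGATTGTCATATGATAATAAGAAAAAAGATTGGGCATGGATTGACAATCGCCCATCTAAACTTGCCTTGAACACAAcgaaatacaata
Klra1: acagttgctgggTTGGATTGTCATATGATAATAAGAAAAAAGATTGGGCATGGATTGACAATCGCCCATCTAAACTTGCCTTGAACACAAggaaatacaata
Klra8: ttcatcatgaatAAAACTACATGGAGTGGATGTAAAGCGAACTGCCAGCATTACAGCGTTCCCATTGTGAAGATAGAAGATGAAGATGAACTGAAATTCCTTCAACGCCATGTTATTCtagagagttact
Klra9: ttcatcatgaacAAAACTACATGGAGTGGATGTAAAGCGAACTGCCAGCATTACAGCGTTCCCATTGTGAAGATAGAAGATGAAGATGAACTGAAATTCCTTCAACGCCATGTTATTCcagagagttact
Of all 50-base words of the Klra8 transcript, 10.36% also occurred in Klra9, and of those of Klra4, 4.26% also occurred in Klra1. Klra2 and Klra17 shared no 50-base word with any of the other members that had a transcript in GRCm38. Klra10 and Klra3 had the longest identical run among the 11 Klra transcripts compared, 121 bases. Read length is not given in the sources used here, so the share of reads that could match more than 1 gene is unknown.

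The remaining Klra genes were scarce and overlapped between groups or nearly so. Klra5 had 4.55 and 1.81 CPM in the libraries labelled knockout, against 0.656 and 1.91 CPM in the controls (log2 fold change 1.37 ± 0.62, SE; edgeR adjusted p = 0.6863). Klra6 and Klra19 had identical counts, with 1.55 and 0.806 CPM in the libraries labelled knockout and 0.547 and 0.730 CPM in the controls (log2 fold change 0.92 ± 0.59, SE; edgeR adjusted p = 0.8294). Klra2 was the exception in sign, with 0.857 and 0.581 CPM in the libraries labelled knockout and 1.38 and 0.608 CPM in the controls, a log2 fold change of -0.47 ± 0.61 (SE; edgeR adjusted p = 0.9286). Klra17 had 0.429 and 0.935 CPM in the libraries labelled knockout and 0.583 and 0.487 CPM in the controls (log2 fold change 0.30 ± 0.70, SE; edgeR adjusted p = 0.958).

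The other receptors of the complex were close to the floor of detection, and none had enough counts to be tested. In all, 16 members were not tested, with 0 to 39 counts in any library. The Klrb1 genes, receptors for Clec2 proteins, had little signal: Klrb1a had 5 and 10 counts in the libraries labelled knockout and 16 and 3 in the controls. Klrb1c, the NK1.1 antigen by which natural killer cells are usually recognised in this strain, had 9 and 9 counts in the libraries labelled knockout and 7 and 6 in the controls. Klrb1b and Klrb1f had at most 7 counts in any library.

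Klrd1, the common partner of the Klrc receptors, had 1 and 2 counts in the libraries labelled knockout and 3 and 3 in the controls. The inhibitory receptor gene Klrc1 had 21 and 5 counts in the libraries labelled knockout and 1 and 3 in the controls. Its activating relative Klrc2 had 9 and 4 counts in the libraries labelled knockout and none in either control. Klrc3 had none in either library labelled knockout and 1 and 3 in the controls.

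Klrk1, which encodes the activating receptor NKG2D, had 3 and 3 counts in the libraries labelled knockout and 9 and 9 in the controls. Klre1 and its pairing partners Klri1 and Klri2 had at most 13 counts in any library. Klrg1, an inhibitory receptor for cadherins, had 1 and 5 counts in the libraries labelled knockout and 10 and 4 in the controls. Of the 16 members not tested, both libraries labelled knockout exceeded both controls in 2, Klrc1 and Klrc2, and were below both in 7, Klrk1, Klrb1b, Clec2g, Klrg1, Klri1, Klrd1 and Klrc3. Over all symbols tested these orders held for 18.8% and 17.4%. Klrg2 lies on chromosome 6 outside the complex and was the only one of these receptor genes to be tested. It had 4.93 and 5.61 CPM in the libraries labelled knockout, against 3.90 and 3.28 CPM in the controls (log2 fold change 0.55 ± 0.26, SE; edgeR adjusted p = 0.7249).

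Among the Clec2 genes, some of which encode ligands of the Klrb1 receptors, Clec2d was the most abundant and did not separate the groups. It had 11.52 and 12.03 CPM in the libraries labelled knockout, between the controls at 9.91 and 16.18 CPM. Its log2 fold change was -0.14 ± 0.25 (SE; edgeR adjusted p = 0.9427). All 4 Clec2 genes tested had negative log2 fold changes, with a median of -0.64, and none was called, but Clec2d was at 0.28 without control replicate 2.

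Clec2e had 0.589 and 0.323 CPM in the libraries labelled knockout and 0.947 and 0.932 CPM in the controls, a log2 fold change of -1.0 ± 0.61 (SE; edgeR adjusted p = 0.814). It was the only member tested in which both libraries labelled knockout were below both controls, an order seen in 17.4% of all symbols tested. Clec2l, which lies elsewhere on chromosome 6, had 0.696 and 0.387 CPM in the libraries labelled knockout and 1.17 and 0.608 CPM in the controls. Clec2h had at most 0.932 CPM in any library, and Clec2g and Clec2i at most 9 counts. Klraq1 had 39.46 and 47.64 CPM in the libraries labelled knockout and 47.51 and 46.5 CPM in the controls, with no separation of the groups.

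**Figure D4:**
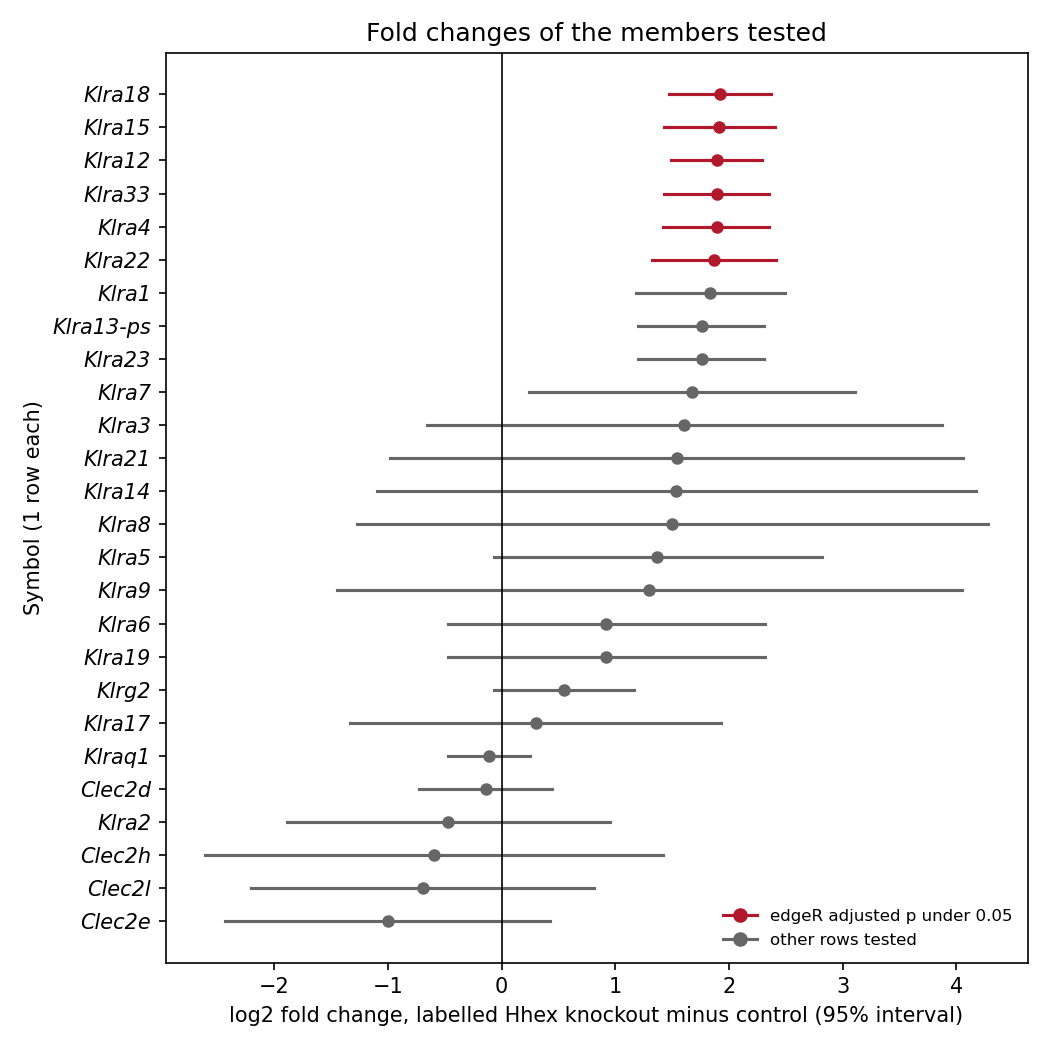
Log2 fold change of the labelled Hhex knockout over control for the 26 members tested, with 95% intervals from the edgeR fit; red marks an adjusted p under 0.05. The 6 red genes lie between 1.87 and 1.92 with narrow intervals, the intervals of Klra8, Klra9, Klra21, Klra14 and Klra3 span 0, and all 4 Clec2 genes lie below 0, of which Clec2d turns to 0.28 without control replicate 2.

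Markers of natural killer cells other than the members did not follow the Klra genes. The sum over 10 of them, among them the receptor gene Ncr1 and the perforin gene Prf1, was 2.01 and 3.26 CPM in the libraries labelled knockout and 5.25 and 1.58 CPM in the controls. Ncr1 had 2 and 3 counts in the libraries labelled knockout and 6 and 3 in the controls. Of 4 such markers tested, 2 had positive and 2 negative log2 fold changes, and none was called. By comparison Klra18 alone had 111.4 and 120.9 CPM in the libraries labelled knockout and 25.47 and 35.88 CPM in the controls. In these bulk libraries fewer cells of a type and less RNA per cell cannot be told apart.

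Marker sums of other cell types also did not separate the groups. Summed T cell markers were 10.9 and 11.77 CPM in the libraries labelled knockout and 13.55 and 10.91 CPM in the controls. That sum was mostly Cd247 and Lck. Myeloid markers came to 127.8 and 214.9 CPM in the libraries labelled knockout and 166.3 and 148.7 CPM in the controls. Most of this was Cd14, with 108.5 and 205.2 CPM in the libraries labelled knockout and 151 and 134.6 CPM in the controls. Ptprc, Csf1r and Emr1 had means of only 0.504, 1.06 and 0.564 CPM. Marker sums of B cells, acinar cells, fibroblasts and endothelial cells were each at most 8.45 CPM in every library. No marker list was at 0 for any gene in all libraries, and none of their genes was called.

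The signalling partners of the receptors were split between genes of broad and of blood cell expression. Tyrobp, the adaptor of the activating Ly49 receptors, had 2 and 4 counts in the libraries labelled knockout and 5 and 4 in the controls. Hcst, the adaptor of Klrk1, had 1 and 1 counts in the libraries labelled knockout and 4 and 3 in the controls. The phosphatase gene Ptpn6 had 17.33 and 14.48 CPM in the libraries labelled knockout and 18.62 and 16.66 CPM in the controls (log2 fold change -0.15 ± 0.18, SE; edgeR adjusted p = 0.9223).

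Its relative Ptpn11 had 224.2 and 202.5 CPM in the libraries labelled knockout and 199.3 and 202.6 CPM in the controls. Inpp5d, a lipid phosphatase gene of blood cells, had 0.616 and 1.1 CPM in the libraries labelled knockout and 2.04 and 0.730 CPM in the controls. Fcer1g, another adaptor gene, had a log2 fold change of -2.06 ± 0.96 (SE; edgeR adjusted p = 0.6961) at under 0.5 CPM in every library. Of the 4 adaptor and phosphatase genes tested, 1 had a positive and 3 a negative log2 fold change.

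Genes for the ligands of the Klr receptors ranged from abundant to close to the floor, and none of those tested was called in either direction. Of 10 MHC class I genes tested, 9 had a negative log2 fold change and the median was -0.26. H2-K1, a classical MHC class I gene read by inhibitory Ly49 receptors, had 322.3 and 353.2 CPM in the libraries labelled knockout and 365.1 and 402.4 CPM in the controls (log2 fold change -0.18 ± 0.17, SE; edgeR adjusted p = 0.8954). H2-D1 had 263 and 261.7 CPM in the libraries labelled knockout and 306.2 and 327 CPM in the controls (log2 fold change -0.27 ± 0.16, SE; edgeR adjusted p = 0.7855). B2m, the light chain of class I molecules, had 217.7 and 194.3 CPM in the libraries labelled knockout and 267.4 and 224.1 CPM in the controls. Both libraries labelled knockout were below both controls in 5 of the 10 class I genes tested, these 3 with H2-Q4 and H2-Q8, against 17.4% of all symbols tested.

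H2-T22, a nonclassical class I gene, had 63.4 and 40.35 CPM in the libraries labelled knockout and 43.03 and 61.46 CPM in the controls. H2-T23, named here as the ligand of the Klrd1-Klrc receptors, varied more between libraries than between groups, with 65.14 and 28.35 CPM in the libraries labelled knockout and 27.58 and 55.02 CPM in the controls. Of 5 ligand genes of Klrk1 tested, 2 had positive and 3 negative log2 fold changes, with a median of -0.04. Ulbp1, the highest of these in CPM, had 17.2 and 12.23 CPM in the libraries labelled knockout and 16.21 and 16.14 CPM in the controls. Raet1e had 13.79 and 10.74 CPM in the libraries labelled knockout and 10.24 and 11.11 CPM in the controls, and Raet1c had 11.38 and 8.77 CPM in the libraries labelled knockout and 8.60 and 9.53 CPM in the controls. Raet1a had 3.59 and 3.03 CPM in the libraries labelled knockout and 3.32 and 3.53 CPM in the controls.

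The cadherin genes, ligands of Klrg1, included the epithelial Cdh1 with 627.1 and 616.9 CPM in the libraries labelled knockout and 492 and 567.9 CPM in the controls (log2 fold change 0.23 ± 0.18, SE; edgeR adjusted p = 0.8871). Cdh2 had 36.03 and 56.09 CPM in the libraries labelled knockout and 33.23 and 37.3 CPM in the controls. Cdh4 was scarce, with 7 and 39 counts in the libraries labelled knockout and 41 and 14 in the controls. The 8 remaining lectin-like genes of the complex, led by Olr1, Clec1a, Clec12b and Clec9a, summed to at most 2.92 CPM in any library. Olr1, a scavenger receptor gene, had 5 and 10 counts in the libraries labelled knockout and 10 and 9 in the controls, and Clec1a had 3 and 7 in the libraries labelled knockout and 14 and 9 in the controls. These 2 were tested, and neither was called.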

How the data were processed

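RNA from 2 libraries labelled Hhex knockout and 2 control libraries was sequenced from Illumina TruSeq preparations, per the labels' protocols. The deposited tables hold raw counts and RPKM for 28644 transcripts. The submitters' processing notes name mm9 and edgeR. The aligner, the counter, strand handling and the treatment of reads with several matches are not given in the sources used here.

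From the deposited counts, filterByExpr (minimum count 10, minimum total 15) kept 20949 transcripts for TMM scaling and edgeR's quasi-likelihood test (edgeR 4.0.16 in R 4.3.3, bias-adjusted deviance), which was tested on simulated data. P-values were adjusted by the Benjamini-Hochberg method over all of them at 0.05. The authors' RPKM served for levels per length and for limma 3.58.1 on log2(RPKM + 1) or log2(RPKM + 0.1). DESeq2 1.42.0, other scaling and filters, and leaving out each library were alternatives. The older edgeR quasi-likelihood fit was added after the data were seen. Error terms are SE from the fit. Counting intervals (95%) cover counting error only. Those of ratios between genes assume that no read was counted for both.

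Members with a mean of at least 20 counts were named with every library's value, as were up to 4 genes of each companion list and the 5 symbols closest in ratio. Members and lists were chosen with earlier results of these data known. Transcript sequences and gene order come from GRCm38 (GENCODE M21, RefSeq), of which no coordinates are given because the counts use mm9.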

Additional observations from a re-analysis of the deposited data

How the results depend on the processing

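Depth limits the 16 members not tested, and with 2 libraries a group 1 library can decide a call. No paired analysis was possible because the labels give the groups no shared replicate numbers. Against 6 members called higher by edgeR, 0 were called with library totals in place of TMM factors and 0 with 1 transcript per symbol. In both of these settings 0 of all transcripts were called higher. DESeq2 called 9 members. Limma on log2(RPKM + 1) and on log2(RPKM + 0.1) called 10 each, against 125 and 149 of all transcripts called higher. RLE factors, no filter and counts summed per symbol each called 5, and the older quasi-likelihood fit called 7. Over all transcripts or symbols these settings called 19, 19, 11 and 27 higher. Leaving out 1 library gave 0 to 15 members called higher, with 0 without control replicate 1 or control replicate 2, 9 without Hhex knockout replicate 1 and 15 without Hhex knockout replicate 2. Over all transcripts, 22 were called higher in the fit reported, 234 with DESeq2, 882 without Hhex knockout replicate 1 and 1181 without Hhex knockout replicate 2, so calls of all kinds were more frequent there. It gave 0 to 3 called lower, the 3 being Klra8, Klra9 and Klra21 without Hhex knockout replicate 1, where 860 of all transcripts were called lower. Each such fit assumes that the lone library varies like the other group. The fixed-ratio groups numbered 5 at a limit of 1.5 times, against 3 at 1.2.

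Some log2 fold changes turned round. With limma on log2(RPKM + 0.1), Klra8 was at -0.51 and Klra9 at -0.53. Leaving out 1 library, Klra8 ranged over -4.36 to 2.45, Klra9 over -4.87 to 2.23, Klra21 over -2.52 to 2.44, Klra3 over -0.93 to 2.38 and Klra14 over -2.24 to 2.37, the low ends without Hhex knockout replicate 1 and the high ends without replicate 2. Klra2 was at 0.26 without control replicate 1 and at -0.89 without control replicate 2. Clec2d was at -0.46 without control replicate 1 and at 0.28 without control replicate 2. The cause was not tested.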
